A study of Mus with 14 samples.

Results

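The monocyte progenitors described here were 6781 cells, 9.68% of the 70038 bone marrow cells that passed the quality filters. A cell was counted as a member when it held at least 1 UMI (unique molecular identifier, a tag that marks 1 captured transcript) each of F13a1, Irf8 and Ly86, at most 4 UMIs of S100a4, and none of Cebpe, Siglech, Cd79a and Ms4a2. F13a1, Irf8 and Ly86 mark cells on the monocyte path. S100a4 rises as monocytes mature, and the other genes mark granulocyte, plasmacytoid dendritic, B lymphoid and basophil or mast cell progenitors. The rule used measured transcripts, so the levels of these 8 genes describe the choice and are no finding.

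The study asked how loss of either receptor for tumor necrosis factor (TNF) changes blood formation by Dnmt3a-mutant cells, a mouse model of clonal hematopoiesis. Single-cell 3' RNA libraries came from 14 mice, each a secondary transplant recipient harvested 20 weeks after transplant. Donor-derived bone marrow cells (CD45.2+) that lacked lineage markers and carried Kit (Lin-Kit+) were sorted from each mouse. Hosts were aged, lethally irradiated CD45.1+ animals, and the primary recipients of every group had received poly(I:C), which turns on the Mx promoter that drives Cre. The 4 genotype labels were MxCre (3 mice, the controls), Dnmt3a (4 mice), Dnmt3a;Tnfr1KO (3 mice) and Dnmt3a;Tnfr2KO (4 mice). The last pair, called Tnfr1KO and Tnfr2KO mice here, carried the Dnmt3a mutation together with loss of TNF receptor 1 (gene Tnfrsf1a) or TNF receptor 2 (gene Tnfrsf1b). Neither the Dnmt3a allele nor the receptor alleles are spelled out further, and the ages of the animals are not given in the sources used here. The labels do not say whether mice of a group shared a primary donor, so each p-value measures the spread between these mice only.

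Monocyte progenitors arise from granulocyte-monocyte progenitors and give rise to circulating Ly6C-high monocytes. The transcription factor Irf8 favours the monocyte branch, whereas Cebpe and Gfi1 act in the granulocyte branch. Csf1r, the receptor for macrophage colony-stimulating factor, and the chemokine receptor Ccr2, which is needed for monocytes to leave the marrow, are acquired along this path while the stem and progenitor gene Cd34 is lost. TNF signals through its 2 receptors to NF-kB, and TNF receptor 1 alone carries a death domain.

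Depth was high in the members. The median member held 29773 UMIs and 4886 detected genes, against a median of 20853.5 UMIs over all kept cells. Each mouse gave 166 to 1170 members and from 4973626 to 28391209 UMIs summed over them. In all, 1195 kept cells (1.71%) had a cell barcode also found in a kept cell of another library; 103 of them were members, and 8 members shared it with another member. In the library of Dnmt3a mouse 1, 26.9% of the barcodes were kept, and this mouse stood apart from its group in several results given with its value. A library split crossed the groups: outside the members, the histone gene Hist1h2ap reached 55.5 to 103 counts per 1000000 UMIs (CPM) in 6 libraries, the 4 Dnmt3a mice and Tnfr2KO mice 3 and 4, and 497 to 2052 CPM in the other 8. No label names a batch that follows it. For Dnmt3a against MxCre and for Tnfr1KO against Dnmt3a, the split and the genotype cannot be told apart.

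The members carried the monocyte program beyond the genes that chose them. After every cell was thinned to 5000 UMIs, the membrane protein gene Ms4a6c was detected in 83.8% of members, Ccr2 in 37.7% and Csf1r in 21.0%. Without thinning the shares were 99.6%, 83.6% and 69.9%. Granulocyte progenitors here were the 21076 cells with at least 1 UMI each of Cebpe and Mpo and none of Siglech, Cd79a and Ms4a2. Among them the thinned shares were 29.6% for Ms4a6c, 9.3% for Ccr2 and 4.8% for Csf1r. In 5907 erythroid cells chosen by Klf1 and Car1, these shares were 3.3%, 1.4% and 0.5%. The part of free RNA in the droplets in the erythroid shares was not tested. Every cell compared here held the same 5000 UMIs, while the members themselves were chosen on their full counts.

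Progenitor and granule genes were still present. The thinned share was 99.8% for Mpo (myeloperoxidase) and 93.0% for Elane (neutrophil elastase), against 27% and 22.4% in erythroid cells. In granulocyte progenitors these shares were 98.3% and 95.8%. Mpo was part of the choice of those cells, so its share there is no finding. Cd34 was found in 59.5% of members and 42.5% of granulocyte progenitors. Gfi1, a repressor that acts in granulocyte development, was found in 7.1% of members and 26.1% of granulocyte progenitors. The neutrophil gene S100a8 was found in 8.3% of members (2.2% to 37.1% by mouse) and in 8.8% of erythroid cells (1.3% to 29.1%), so its share in members is not read as expression. Flt3, a receptor of early progenitors and dendritic cell precursors, was found in 8.0% of members and 2.2% of granulocyte progenitors. In erythroid cells the shares were 7.9% for Cd34, 1.2% for Gfi1 and 0.6% for Flt3. Ly6c2, the surface antigen of classical monocytes, was found in 81.9% of members and 68.4% of granulocyte progenitors, and the lysozyme gene Lyz2 in 58.3% and 49.6%, against 6.6% and 12.6% of erythroid cells. By these markers the label of a progenitor on the monocyte path held.

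**Figure D1:**
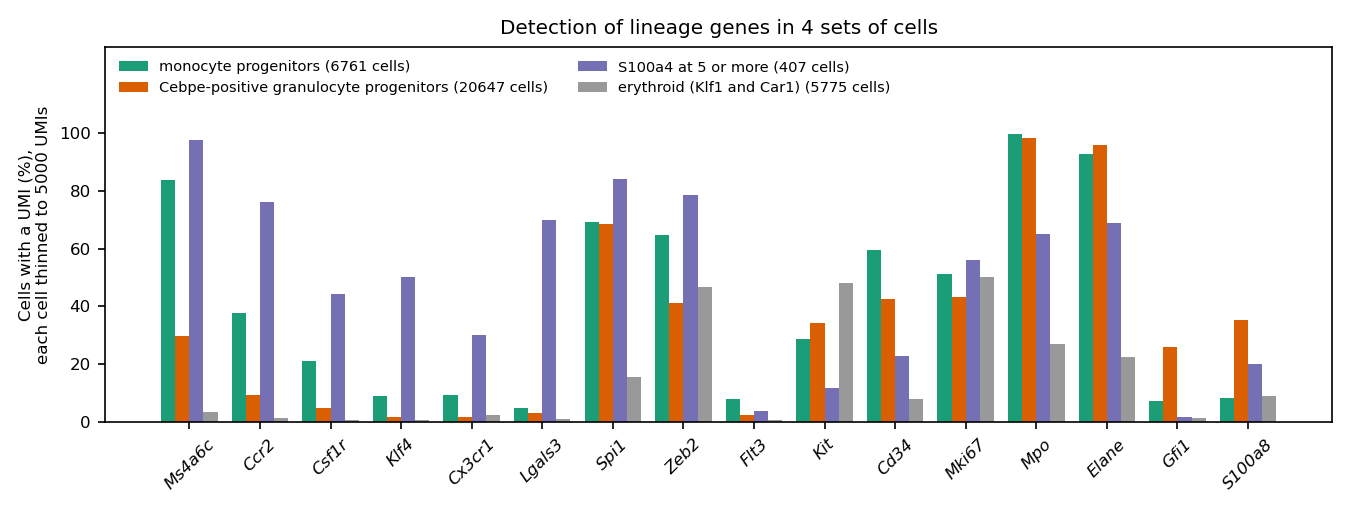
Percent of cells with at least 1 UMI of each gene (horizontal axis) after thinning every cell to 5000 UMIs, for members, Cebpe-positive granulocyte progenitors, cells that meet the rule except for 5 or more S100a4 UMIs, and erythroid cells. Ms4a6c, Ccr2 and Csf1r were found in 83.8%, 37.7% and 21.0% of members and in 3.3%, 1.4% and 0.5% of erythroid cells.

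The S100a4 limit cut a graded series. Of the members, 4456 had no S100a4 UMI, 1956 had 1 or 2 and 369 had 3 or 4, while 111 cells just outside had 5 or 6 and 304 had 7 or more. Across these classes in that order, the thinned share with Klf4, a transcription factor of monocyte differentiation, was 7.2%, 11.7%, 14.7%, 29.7% and 58.1%. Lgals3, which codes for galectin-3, went from 2.5% through 8.0%, 15.3% and 35.1% to 83.1%. In erythroid cells the shares were 0.55% for Klf4 and 1.0% for Lgals3. Cd34 ran the other way, from 59.7% with no S100a4 to 14.5% with 7 or more UMIs. Mpo stayed above 99% inside the limit and was found in 95.5% and 53.7% of the 2 classes outside it. At the other limits, 374 members held a single F13a1 UMI and 765 cells met all other conditions with none. For Irf8 these numbers were 153 and 113, and for Ly86 they were 1288 and 2318. The 765 cells without F13a1 had thinned shares of 60.4% for Ms4a6c, 35.2% for Ccr2, 10.5% for Csf1r and 11.6% for Klf4. In the 374 members with a single F13a1 UMI these were 66.2%, 22.5%, 11.3% and 1.9%. In the 2318 cells without Ly86 they were 58.5%, 26.2%, 10.8% and 2.1%. These 4 genes were therefore not confined to members. A further 1416 cells failed only by 1 UMI of Cebpe. Their thinned shares were 98.7% for Elane, 74.7% for Ms4a6c, 30.4% for Ccr2 and 16.5% for Csf1r. In members these were 93.0%, 83.8%, 37.7% and 21.0%, and in all granulocyte progenitors 95.8%, 29.6%, 9.3% and 4.8%. Those of the 1416 that held Mpo also counted as granulocyte progenitors, in the ratio of cell numbers and in the test against them.

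Genes outside the rule and found in at least 25% of members were ranked by the ratio of their level in members to that in the rest of the kept cells, with 10 CPM added to each, which favours abundant genes. The first 10 are named here. Ms4a6c led with 421 ± 30.2 CPM (SD, n = 14 mice) against 88.9 CPM in the rest. Ccr2 stood at 110 ± 23.2 against 27 CPM and Csf1r at 47.9 ± 6.36 against 9.75 CPM. The interferon-inducible gene Ifi209 stood at 61.2 against 12.1 CPM, and without the added 10 CPM it and Csf1r would rank above Ms4a6c. The others were Tifab, a regulator of TRAF6 signaling, the secreted protease inhibitor gene Slpi, the glutamate receptor subunit gene Gria3, the cell adhesion gene Emb, the lysosomal protease gene Ctsh and the complement gene Cfp (properdin). Each was above the rest in 14 of 14 mice. Set against granulocyte progenitors alone, the order also brought up Ighm (161 ± 22.8 against 34.3 CPM), the endoplasmic reticulum peroxidase gene Prdx4, the protease gene Ctss (39.1 ± 7.33 against 5.05 CPM) and Il6st, which codes for the shared signaling chain of the interleukin-6 receptor family. These levels come from the cells that the rule split, so they carry no test.

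On average, members were rarest in MxCre mice and most frequent in Tnfr1KO mice. They made up 6.56%, 5.77% and 3.66% of kept cells in the 3 MxCre mice (5.33% ± 1.5, SD, n = 3). The Dnmt3a mice had 13.6%, 9.36%, 10.6% and 3.12% (9.16% ± 4.41, n = 4), the widest range of the groups. Tnfr1KO mice had 16.3%, 8.45% and 15.7% (13.5% ± 4.36, n = 3), and Tnfr2KO mice had 15.1%, 9.86%, 9.05% and 7.83% (10.5% ± 3.21, n = 4). Counting error was small beside this spread, with 95% exact binomial (Clopper-Pearson) intervals of 2.68% to 3.60% for the lowest mouse and 15.4% to 17.2% for the highest. A share can rise because members rise or because other Lin-Kit+ cells fall, which a sorted sample cannot separate.

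None of the 4 designed comparisons of the share passed its test. Dnmt3a mice exceeded MxCre mice by 3.83 percentage points on average, with overlapping values (exact permutation test over mice, two-sided, p = 0.229, adjusted p = 0.419 over 4 comparisons). Tnfr1KO exceeded Dnmt3a by 4.31 points (exact permutation p = 0.257, adjusted p = 0.419), and Tnfr2KO exceeded Dnmt3a by 1.30 points (exact permutation p = 0.714). Tnfr2KO lay 3.01 points under Tnfr1KO (exact permutation p = 0.314, adjusted p = 0.419). The smallest p these group sizes allow is 0.0286. Single mice moved these differences by more than 1.5 times. Dnmt3a less MxCre was 2.35 points without Dnmt3a mouse 1 and 5.85 without Dnmt3a mouse 4. Tnfr1KO less Dnmt3a was 2.30 without Dnmt3a mouse 4 and 6.82 without Tnfr1KO mouse 2. Tnfr2KO less Tnfr1KO was -1.61, -5.53 and -1.90 without Tnfr1KO mice 1, 2 and 3, and -4.56 without Tnfr2KO mouse 1. Dnmt3a mouse 4 had the shallowest library and, before thinning, the lowest share of all mice. Without it, the Tnfr2KO difference from Dnmt3a turned to -0.72 points, and without Tnfr2KO mouse 1 to -0.25 points. Within the library split, Tnfr2KO mice 3 and 4 less the Dnmt3a mice was also -0.72 points (exact permutation p = 0.8). Tnfr2KO mice 1 and 2 less the Tnfr1KO mice shrank to -0.99 points (exact permutation p = 0.8). With so few mice neither of these within-split tests could give a p under 0.05.

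Both receptor knockout groups lay wholly above the controls in a comparison added after the values were seen. All 7 receptor knockout mice had a higher share than all 3 MxCre mice. The difference was 8.14 points for Tnfr1KO (exact permutation p = 0.1, the smallest possible with 3 against 3 mice) and 5.13 points for Tnfr2KO (exact permutation p = 0.0571). Adjusted over this pair, p was 0.1 for each. With all cells thinned to 5000 UMIs before the rule was applied, group means fell to 2.47% in MxCre, 3.86% in Dnmt3a, 6.73% in Tnfr1KO and 4.47% in Tnfr2KO mice, and the 7 mice again lay above the 3.

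Members were outnumbered by granulocyte progenitors in every mouse. The log2 ratio of members to granulocyte progenitors was -1.88, -2.30 and -2.0 in MxCre mice. It was -0.98, -1.58, -1.83 and -2.52 in Dnmt3a mice, -1.14, -1.45 and -1.09 in Tnfr1KO mice and -1.10, -1.47, -2.14 and -2.32 in Tnfr2KO mice. The Tnfr1KO values lay above all MxCre values, while the Dnmt3a and Tnfr2KO values overlapped every other group. The differences were 0.33 for Dnmt3a against MxCre, 0.50 for Tnfr1KO against Dnmt3a, -0.03 for Tnfr2KO against Dnmt3a and -0.53 for Tnfr2KO against Tnfr1KO. None passed the exact permutation test, with p from 0.257 to 0.914. The added comparison of Tnfr1KO with MxCre gave 0.83 (exact permutation p = 0.1, the smallest possible), and that of Tnfr2KO with MxCre gave 0.30 (exact permutation p = 0.457). Adjusted over this pair, p was 0.2 and 0.457. In the Tnfr2KO group, the mice on the high side of the library split, 1 and 2, had the higher ratios. Within the split, the difference was -0.50 for Tnfr2KO against Dnmt3a (exact permutation p = 0.4) and -0.06 for Tnfr2KO against Tnfr1KO (exact permutation p = 0.7). The first used Tnfr2KO mice 3 and 4 and the second mice 1 and 2, too few for a p under 0.05.

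**Figure D2:**
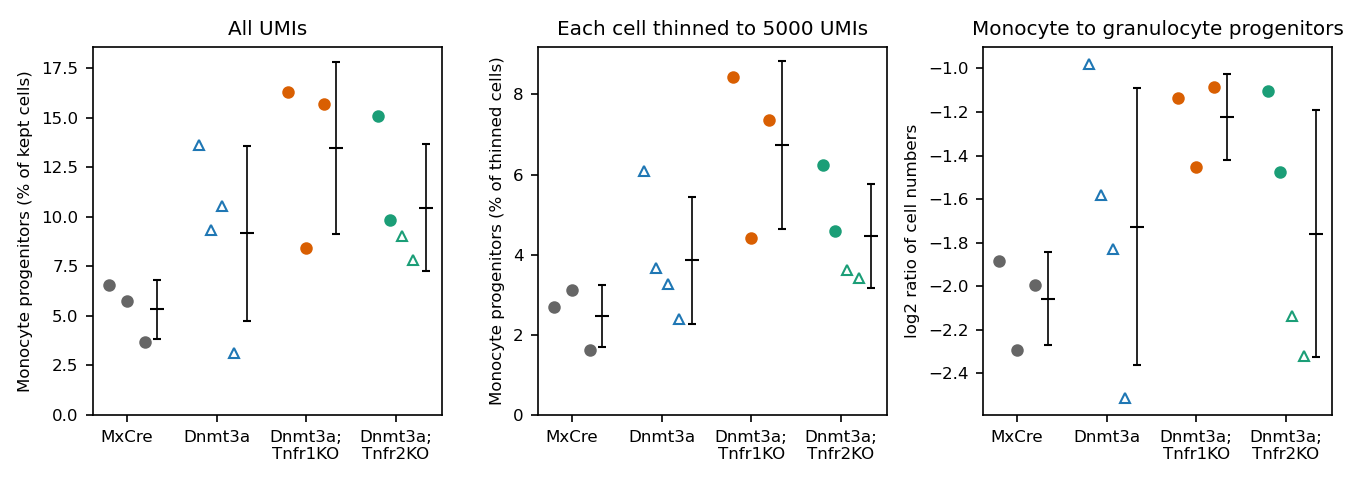
Members as a percent of kept cells and log2 ratio of members to granulocyte progenitors, 1 symbol per mouse, filled circles for libraries on the high side of the Hist1h2ap split, open triangles for those on the low side, and black bars for the mean ± SD. The shares of the 7 receptor knockout mice start at 7.83%, above the 6.56% of the highest MxCre mouse, and the Dnmt3a mice span 3.12% to 13.6%.

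For gene expression, the UMIs of all members of a mouse were summed and tested with edgeR's quasi-likelihood test across 11852 genes, with Benjamini-Hochberg adjusted p. Levels are CPM of the summed members scaled by TMM factors, in order of mouse number. Tnfrsf1b (chromosome 4, 145212368 to 145246870, GRCm38), the targeted gene of the Tnfr2KO mice, stood at 3.48, 5.0, 4.10 and 4.85 CPM in them. It was 13.4, 12.6, 12.5 and 15.7 CPM in Dnmt3a, 13.1, 18.8 and 12.8 in MxCre and 10.8, 11.6 and 16.0 in Tnfr1KO mice. The Tnfr2KO mice lay below every other mouse, and Tnfrsf1b fell by 1.63 on the log2 scale against Dnmt3a (SE 0.17, edgeR adjusted p = 4.21e-05).

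Tnfrsf1a (chromosome 6, 125349723 to 125362483) did not mark its knockout group as clearly. Its levels were 41.0, 42.0 and 39.6 CPM in Tnfr1KO mice, 38.1, 49.8, 63.7 and 62.9 in Dnmt3a, 59.4, 61.4 and 58.0 in MxCre and 60.2, 53.1, 61.7 and 74.9 in Tnfr2KO mice. Against Dnmt3a the log2 difference was -0.39 (SE 0.15, edgeR adjusted p = 0.181) with overlapping values. The labels do not say which stretch of the gene was removed, and 3' counts of a remaining transcript check nothing about the protein. Dnmt3a itself (chromosome 12) was 17.3, 18.0 and 18.8 CPM in MxCre and 26.8, 24.9, 20.9 and 26.2 in Dnmt3a mice. Tnfr1KO mice had 15.6, 19.1 and 18.4 CPM and Tnfr2KO mice 20.8, 20.5, 19.4 and 17.6. All Dnmt3a mice lay above all others, and the edgeR adjusted p was 0.0627 against MxCre, 0.0544 for Tnfr1KO and 0.102 for Tnfr2KO against Dnmt3a. With DESeq2 these adjusted p were 0.0430, 0.0175 and 0.0984, so the first pair passed. Transcripts of Tnf, the ligand, were scarce at 1.46 to 9.77 CPM over the 14 mice, with adjusted p of at least 0.376 in each comparison.

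In Dnmt3a against MxCre members, 320 of 11852 genes passed the test (2.7%), 151 higher (1.27%) and 169 lower (1.43%), and the values of the groups did not overlap for 18.1%. Genes that rose were longer by median than genes that fell, a difference that was not tested. The median RefSeq gene span was 63.4 kb for the genes that rose, 6.41 kb for those that fell and 21.8 kb for all tested genes. Among the genes that fell, 13 coded for ribosomal proteins, of 77 such genes tested. Rps29, a small ribosomal subunit gene, stood at 2904, 3831, 2547 and 2786 CPM in Dnmt3a and 9887, 8482 and 7209 CPM in MxCre mice (log2 difference -1.5, SE 0.27, edgeR adjusted p = 0.0173). The nuclear noncoding RNA Kcnq1ot1 went the other way, with 366, 234, 233 and 201 against 122, 104 and 128 CPM (1.13, SE 0.18, adjusted p = 0.0127).

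These counts moved with the library split and with single mice. With a term for the split, 13 genes passed (0.11%), and 1 of them, Mtus2, was among the 320. The term was estimated from Tnfr2KO mice alone, 1 and 2 against 3 and 4, because no other group has libraries on both sides. A call kept or lost with this term therefore does not separate the split from the genotype. Without the term, leaving out MxCre mouse 1 gave 1 gene, MxCre mouse 2 gave 1, MxCre mouse 3 gave 57 and Dnmt3a mouse 1 gave 131.

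Of 25 monocyte identity genes tested in this comparison, 1 passed edgeR, as a fall, beside 2.7% of all genes. The list median was 0.05 against 0.01 for all genes. DESeq2 called 2 of them lower and none higher, and 2 higher and 4 lower had an unadjusted p under 0.05. The gene that fell by edgeR was Ly6c2 (chromosome 15, 75108161 to 75112066). It stood at 688, 684, 692 and 888 CPM in Dnmt3a and 1239, 1833 and 920 CPM in MxCre mice, with no overlap (-0.85, SE 0.17, edgeR adjusted p = 0.0248). With the split term its adjusted p was 0.281. Csf1r, at 38.7 to 59.3 CPM, and Ccr2, at 88.8 to 147 CPM over all 14 mice, did not pass in any comparison. Cebpb, a transcription factor of emergency myelopoiesis and monocyte survival, was the 1 of 23 myeloid transcription factors that fell, with 68.9, 81.7, 70.2 and 90.3 against 146, 167 and 118 CPM (-0.89, SE 0.21, adjusted p = 0.0396). Over all genes in this comparison, 20.5% had an unadjusted p under 0.05 and DESeq2 called 5.7%. Of the 25 cytokine and chemokine receptors none passed with edgeR or DESeq2, and 5 had an unadjusted p under 0.05, a share near that of all genes.

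No primary granule gene passed edgeR in this comparison. Of 18 such genes, 16 had a log2 difference below 0 (48.3% of all genes did), with a median of -0.30 against 0.01 for all genes. Of them 5 had an unadjusted p under 0.05 (20.5% of all genes did) and 2 passed DESeq2 (5.7% of all genes did). Their summed levels overlapped between the groups. Mpo was 2569, 3619, 4564 and 5457 CPM in Dnmt3a and 5346, 5844 and 4785 CPM in MxCre mice, which overlapped. Elane was 2127, 2825, 3752 and 4719 against 4828, 5732 and 3547 CPM, lowest in Dnmt3a mouse 1.

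Proliferation genes were called in both directions. Among 51 genes of the G2 and M phases, Mki67 and Cenpf rose while Hmgb2 and Cks2 fell by edgeR, which called 2.7% of all genes. DESeq2 called 7 of this list higher and 2 lower, against 5.7% of all genes. An unadjusted p under 0.05 was met by 10 higher and 7 lower, against 20.5% of all genes in either direction. By each of these 3 counts the list lay above the share of all genes, and by DESeq2 it leaned higher. Mki67, the Ki-67 antigen gene, was 508, 259, 274 and 274 CPM in Dnmt3a and 164, 171 and 179 CPM in MxCre mice (0.94, SE 0.21, edgeR adjusted p = 0.0325). Hmgb2, a short chromatin protein gene, was 1565, 1783, 1713 and 1646 against 2383, 2487 and 2093 CPM (-0.47, SE 0.10, adjusted p = 0.0273). Of 42 S phase genes, none fell, and Dtl was among those that rose, with 10 higher and 3 lower at an unadjusted p under 0.05.

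Among immune and chromatin lists few members passed edgeR. Bst2, the antiviral tetherin gene, was the 1 of 40 interferon response genes that fell, at 121, 135, 137 and 138 against 198, 177 and 180 CPM. B2m, the light chain of MHC class I, was the 1 of 18 MHC class I genes that fell. Dnmt3b, the other de novo DNA methyltransferase, rose from 11.7, 9.01 and 13.6 CPM to 20.2, 18.3, 15.1 and 16.0 (0.60, SE 0.15, edgeR adjusted p = 0.0419). Of the 40 interferon response genes DESeq2 called 2 higher and 1 lower, and 7 higher and 4 lower had an unadjusted p under 0.05. Their list median was 0.14 against 0.01 for all genes. DESeq2 called 4 of the 18 MHC class I genes (1 higher and 3 lower) and 2 of the 18 DNA methylation genes, against 5.7% of all genes. Of the DNA methylation genes 6 were higher at an unadjusted p under 0.05. Of 11 MHC class II and conventional dendritic cell genes none passed edgeR, and DESeq2 called 1 higher, H2-Aa. Of these 11 genes, 4 higher and 2 lower had an unadjusted p under 0.05, above the share of all genes. Their median was 0.68 against 0.01 for all genes. The TNF receptor and NF-kB list holds the ligand, adaptors, kinases, NF-kB subunits and target genes, but no receptor gene. No gene of it passed among 37 tested, with 4 at an unadjusted p under 0.05, a lower share than the 20.5% of all genes, and none by DESeq2. None of the list genes called in this comparison passed with the split term, apart from Mtus2.

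The germline-type list, of which 3 of 25 genes passed the filter on low counts, held 2 genes that were nearly silent in whole groups. Both passed that filter through the groups where they were high, so their number supports nothing. Mtus2 (chromosome 5, 147957275 to 148316065), a microtubule-binding protein gene, stood at 27.6, 27 and 9.93 CPM in MxCre mice and gave 3 UMIs in all Dnmt3a members together (edgeR adjusted p = 0.0146); DESeq2 gave it no adjusted p. Tnfr1KO mice had 2.13, 0.239 and 0 CPM, and Tnfr2KO mice had 0, 0, 0 and 3.19 CPM. Hormad2, which codes for a meiotic chromosome axis protein, was 15.5, 15 and 4.66 CPM in MxCre mice with no UMI in the Dnmt3a mice, at least 205-fold lower against a floor of 3 UMIs over the group (edgeR adjusted p = 0.0345), and DESeq2 called it too. In Tnfr1KO mice it was 0.224, 0 and 0 CPM. In Tnfr2KO mice it was 14, 13.6, 0 and 0.0614 CPM, present in mice 1 and 2 and near absent in mice 3 and 4. The remaining gene, Tdrkh, stood the other way at 10.6, 13.3, 6.80 and 6.38 CPM in Dnmt3a and 4.64, 3.26 and 4.26 CPM in MxCre mice (1.16, SE 0.39, edgeR adjusted p = 0.113), and DESeq2 called it higher.

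**Figure D3:**
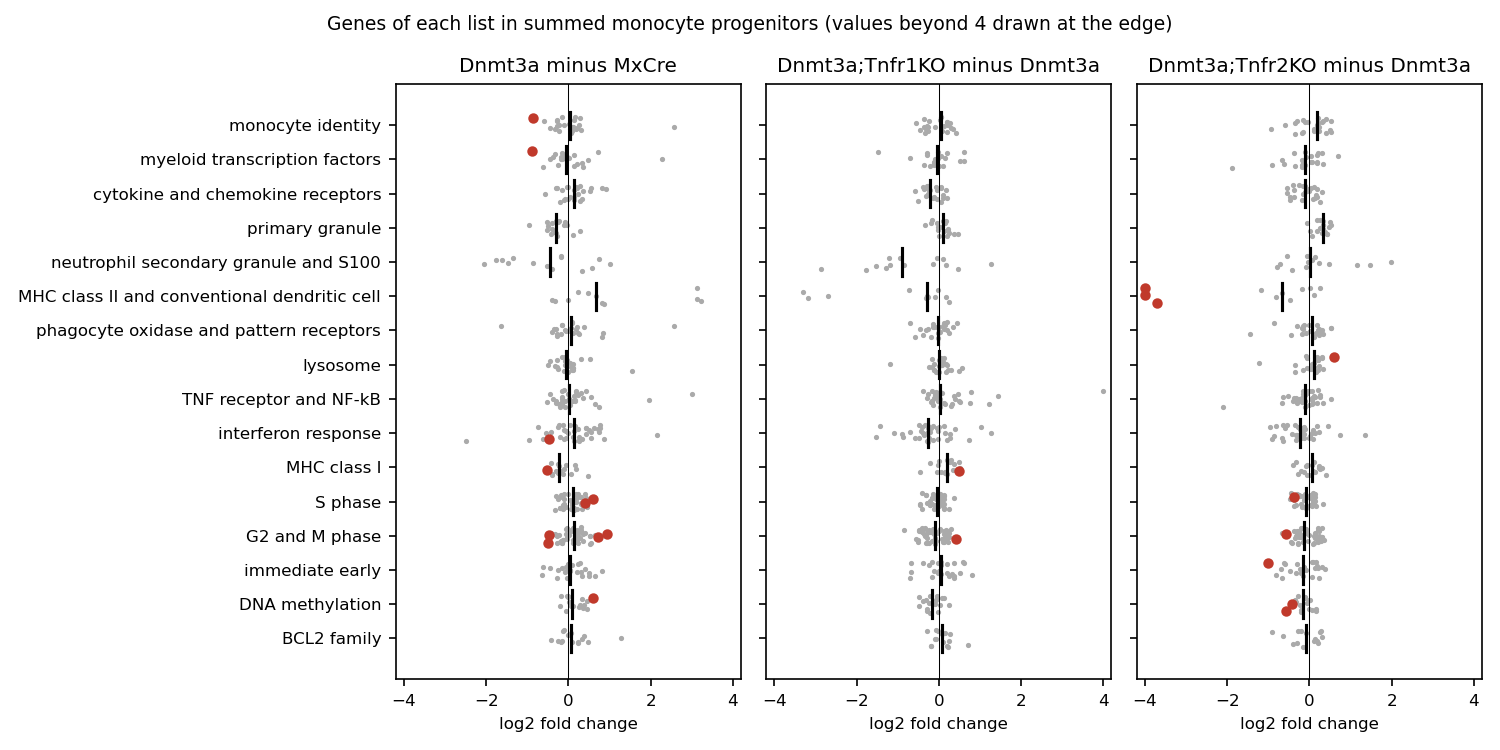
Log2 fold changes (horizontal axis) of the tested genes of each gene list in Dnmt3a against MxCre and in each receptor knockout against Dnmt3a, red for genes with edgeR adjusted p under 0.05, grey for the others and black ticks for list medians, with values beyond 4 drawn at the edge. Most lists have no or few red points, and the primary granule median lies at -0.30 in Dnmt3a against MxCre.

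In Tnfr1KO against Dnmt3a members, 171 genes passed (1.44%), 120 higher (1.01%) and 51 lower (0.43%), and the groups did not overlap for 16.1%. The median span again differed between the directions, at 6.30 kb for genes that rose and 65.2 kb for those that fell, and 14 genes that rose coded for ribosomal proteins. Hist1h2ap, the gene that shows the split, was 1435, 1466 and 556 CPM against 72.5, 110, 53.6 and 94.7 CPM. With the split term 18 genes passed (0.152%), 8 of them among the 171. This count ran from 20 without Tnfr1KO mouse 3 to 284 without Dnmt3a mouse 2, and was 22 and 59 without Tnfr1KO mice 2 and 1 and 78, 77 and 84 without Dnmt3a mice 1, 3 and 4.

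Ckm and Lrmda were among the genes that passed with the split term too. Ckm, the muscle creatine kinase gene (chromosome 7, 19411094 to 19421583), was 198, 189 and 259 CPM in Tnfr1KO, 6.29, 15.3, 21.5 and 20.7 in Dnmt3a and 13.1, 19.0 and 12 in MxCre members (3.76, SE 0.36, edgeR adjusted p = 4.85e-05). With the split term the log2 difference of Ckm was 2.70 (adjusted p = 0.0185). Lrmda, a gene of melanocyte differentiation (chromosome 14, 22019504 to 23056093), was 1.49, 2.15 and 1.65 CPM against 14.1, 16.3, 17.4 and 16.0 in Dnmt3a and 20.7, 23.8 and 13.4 in MxCre mice (-3.21, SE 0.20, adjusted p = 1.26e-07). For both, the Tnfr1KO mice stood clear of MxCre and Dnmt3a mice alike. Apoe, the lipid carrier gene of macrophages, was 7.57, 10.7 and 10.8 against 35.3, 32.5, 19.7 and 117 CPM (-2.39, SE 0.50, adjusted p = 0.0265), highest in Dnmt3a mouse 4, and it did not pass with the split term.

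The gene lists gave 2 calls. Psme1, a proteasome activator subunit gene, was the 1 of 18 MHC class I genes that rose (470, 443 and 407 against 268, 332, 339 and 313 CPM), and Hmgb2 was the 1 of 51 G2 and M phase genes that rose by edgeR. Of the G2 and M phase genes DESeq2 called 1 higher and 4 lower, and 3 higher and 13 lower had an unadjusted p under 0.05. Neither Psme1 nor Hmgb2 passed with the split term. Over all genes, 18.8% had an unadjusted p under 0.05 and DESeq2 called 4.22%. No monocyte identity gene of 25 passed with edgeR or DESeq2, with 5 at an unadjusted p under 0.05. None of the 37 TNF receptor and NF-kB genes passed with either tool, with 7 at an unadjusted p under 0.05. Both counts are near the share of all genes. Of 40 interferon response genes 30 had a log2 difference below 0 (52.0% of all genes did), with 2 higher and 8 lower at an unadjusted p under 0.05. None of them passed edgeR and 1 passed DESeq2. Sod2, the manganese superoxide dismutase gene induced through NF-kB, was 129, 149 and 132 against 91.2, 112, 126 and 116 CPM (0.29, SE 0.11, edgeR adjusted p = 0.156).

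MxCre and Tnfr1KO libraries were all on the high side of the split, so the split does not enter this added comparison. It gave 11 genes (0.0928%), 4 higher and 7 lower, which were chosen after their values were seen. They included Ckm, Lrmda and Mnd1, a meiotic recombination gene. Mnd1 was 65.9, 59.6 and 59.7 CPM in Tnfr1KO and 29.1, 28.8 and 27.4 CPM in MxCre members (1.12, SE 0.15, edgeR adjusted p = 0.00216), and its 60.3, 57.9, 41.1 and 57.8 CPM in Tnfr2KO mice also lay above every MxCre and Dnmt3a mouse. None of the 11 was on the monocyte identity or TNF lists.

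In Tnfr2KO against Dnmt3a members, 302 genes passed (2.55%), 161 higher (1.36%) and 141 lower (1.19%), and the groups did not overlap for 10.8%. Each side of the library split held Tnfr2KO mice, so the comparison could also be made within the split. There it set Tnfr2KO mice 3 and 4 alone against the Dnmt3a mice, and 49 genes passed (0.413%), 35 of them among the 302. Ckm rose here too, at 253, 227, 91.2 and 138 CPM (3.49, SE 0.35, edgeR adjusted p = 2.80e-05, and 2.86 within the split). The median span was again shorter for genes that rose, at 6.92 kb, than for those that fell, at 68.3 kb. Of these genes, 15 that rose and 0 that fell coded for ribosomal proteins. The Tnfr1KO and Tnfr2KO comparisons share the Dnmt3a mice. The count was 91 and 165 without Dnmt3a mice 1 and 4, 507 without Dnmt3a mouse 2, and 61, 106 and 125 without Tnfr2KO mice 1, 2 and 3. It was 24 when only the 2 groups compared were fitted. It was 100 after every cell was thinned to 5000 UMIs and members were chosen anew on the thinned counts, which left fewer members.

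Part of the calls lay near the targeted gene. Of the 302 genes, 32 were on chromosome 4, of 707 tested there. Within 10 Mb of Tnfrsf1b, a window chosen after the values were seen, 20 of 152 tested genes passed, beside 2.55% of all genes. Zfp990, a zinc finger gene (chromosome 4, 145510759 to 145538251), was 8.99, 10.4, 22.2 and 19.1 CPM in Tnfr2KO mice, 0 to 0.114 CPM in Dnmt3a and 0 to 0.203 CPM in MxCre mice. In Tnfr1KO mice it had no UMI, and the Tnfr2KO mean was at least 293-fold higher than a floor of 3 UMIs over that group. Zfp990 passed the filter on low counts through the Tnfr2KO mice alone. Tnfrsf14, the herpesvirus entry mediator gene (chromosome 4, 154918487 to 154928620), was 13.4, 9.30, 9.93 and 10.2 CPM against 3.78, 2.27, 1.83 and 1.45 in Dnmt3a mice (2.16, SE 0.24, edgeR adjusted p = 9.47e-05).

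Other genes of chromosome 4 moved in both directions. Pusl1, a pseudouridine synthase-like gene (chromosome 4, 155888857 to 155891858), was 7.84, 5.29, 3.82 and 4.30 against 21.4, 22.2, 29.8 and 27.2 CPM (-2.22, SE 0.19, adjusted p = 5.39e-06). A430005L14Rik was 122, 112, 133 and 138 against 40.8, 55.1, 63.1 and 53.5 CPM (1.25, SE 0.12, adjusted p = 1.30e-05). In each of these genes the Tnfr2KO mice lay apart from all 10 other mice. Away from chromosome 4, Plec, the plectin gene (chromosome 15), fell from 62.5, 45.2, 45 and 36.9 to 22.8, 26.4, 27.2 and 19.8 CPM (-0.98, SE 0.14, adjusted p = 0.00140).

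Few genes of the lists passed in this comparison. Over all genes, 21.6% had an unadjusted p under 0.05 and DESeq2 called 5.88%. None of 25 identity genes passed edgeR and 1 passed DESeq2, with 6 at an unadjusted p under 0.05. Ly6c2 was 1063, 959, 974 and 1201 CPM, above every Dnmt3a mouse (0.51, SE 0.16, edgeR adjusted p = 0.0912). Of the 37 genes of the TNF receptor and NF-kB list, which leaves out Tnfrsf1b and Tnfrsf14, none passed edgeR and 1 passed DESeq2, with 7 at an unadjusted p under 0.05, so neither list stood far from the share of all genes. The log2 difference was above 0 for 17 of 18 primary granule genes (48.9% of all genes), with a list median of 0.33 against -0.01 for all genes. None of them passed edgeR, 1 passed DESeq2 and 3 had an unadjusted p under 0.05. Within the split, the serine protease gene Prss57 of this list passed edgeR (0.78, SE 0.15, adjusted p = 0.0247). Of 40 interferon response genes 30 had a log2 difference below 0 (51.1% of all genes did), with 1 higher and 6 lower at an unadjusted p under 0.05. No interferon response gene passed edgeR and 1 passed DESeq2. Dusp6, a phosphatase that limits ERK signaling, was the 1 of 25 immediate early genes that fell (8.51, 10.2, 4.24 and 11.4 against 16.6, 19.6, 19.8 and 12.6 CPM). Tet2 and Mbd4, genes of DNA demethylation and repair, fell among 18 DNA methylation genes, and Dtl and the spindle motor gene Kif11 fell among the S phase and the G2 and M phase genes. DESeq2 called 4 of 42 S phase genes lower, and 1 higher and 3 lower of 51 G2 and M phase genes. Hormad2 of the germline-type list passed edgeR (adjusted p = 0.0441), high in Tnfr2KO mice 1 and 2 alone, and its adjusted p within the split was 0.56. None of the list genes called in this comparison passed within the split. Ctsh was the 1 of 24 lysosome genes that rose. Its log2 difference was -0.0057 in the members chosen anew after thinning to 5000 UMIs.

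MHC class II genes rested on few mice. Cd74, the invariant chain gene, was 0.572, 6.24, 43.2 and 142 CPM in Dnmt3a mice and 1.03, 0.742, 5.0 and 2.03 CPM in Tnfr2KO mice (-4.52, SE 1.17, edgeR adjusted p = 0.0495). H2-Aa and H2-Eb1 passed with it, 3 of 11 genes tested, and Dnmt3a mouse 4 was the highest of all mice for each. Dnmt3a mice 2 and 3 also lay above every Tnfr2KO mouse for Cd74, and Dnmt3a mouse 1 below them. Without Dnmt3a mouse 4 the log2 difference was -3.04 for Cd74 (edgeR adjusted p = 0.114), -2.40 for H2-Aa (adjusted p = 0.0984) and -2.95 for H2-Eb1 (adjusted p = 0.0989). Without any 1 of the Tnfr2KO mice the 3 genes did not pass either, with adjusted p from 0.0559 to 0.128, and without Dnmt3a mouse 3 it was 0.0512 for Cd74. The list of 8 conventional dendritic cell markers holds Cd74 and H2-Aa. The other 6 summed to 22.6 CPM (here without TMM factors) in Dnmt3a mouse 4, inside the 9.10 to 38.1 CPM of the other mice. On the same scale the 10 mature monocyte and macrophage markers summed to 102 CPM in Dnmt3a mouse 4 and to 32.7 CPM or less elsewhere, and C1qb, a complement gene of macrophages, reached 36.4 CPM there and 1.49 CPM or less elsewhere. The part of such cells in these calls was not tested.

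Between the receptor knockouts, Tnfr2KO against Tnfr1KO, 26 genes passed (0.219%), 20 higher (0.169%) and 6 lower (0.0506%), and the groups did not overlap for 4.28%. Of these, 15 were on chromosome 4, of 707 tested there, and 13 within 10 Mb of Tnfrsf1b, of 152 tested. They included Tnfrsf1b (-1.56, SE 0.18, edgeR adjusted p = 1.87e-04), Zfp990, Tnfrsf14 and Pusl1. Lrmda also passed, at 12.4, 11.2, 10.2 and 12.8 CPM in Tnfr2KO against 1.49 to 2.15 CPM in Tnfr1KO mice (2.76, SE 0.20, adjusted p = 1.25e-06). No gene of the 17 lists passed with edgeR or DESeq2, though Hormad2 passed within the split (6.93, SE 0.63, edgeR adjusted p = 9.49e-05). There it was high in Tnfr2KO mice 1 and 2 and nearly silent in the Tnfr1KO mice, which had hardly any UMI to set the fold change. Over all genes, 3.07% had an unadjusted p under 0.05 and DESeq2 called 0.304%. Of 37 TNF receptor and NF-kB genes 4 had an unadjusted p under 0.05, all lower in Tnfr2KO mice and a larger share than that of all genes. Of 25 monocyte identity genes 0 did. Tnfrsf1a was higher in all Tnfr2KO than in all Tnfr1KO mice (0.61, SE 0.15, adjusted p = 0.263). Within the split, with Tnfr2KO mice 1 and 2 alone against the Tnfr1KO mice, 29 genes passed (0.245%), 19 of them shared with the 26. Without Tnfr1KO mouse 2 the count was 16, and without mouse 3 it was 13.

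**Figure D4:**
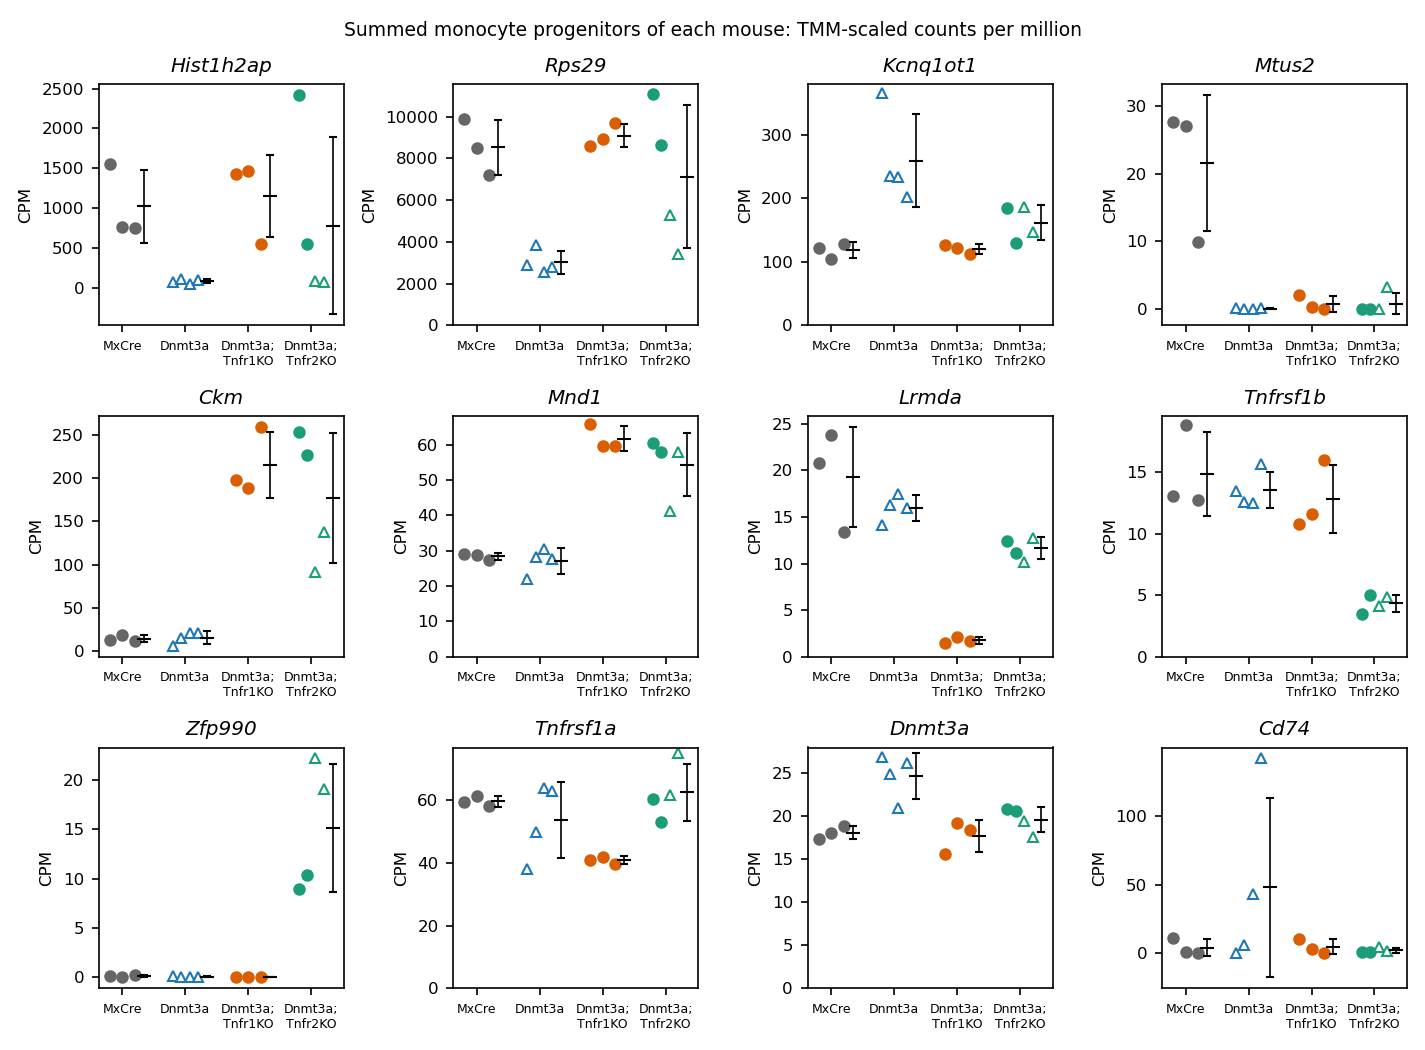
CPM of summed members for 12 genes, 1 symbol per mouse, filled circles for libraries on the high side of the Hist1h2ap split, open triangles for the low side, and black bars for the mean ± SD. Ckm is at 91.2 CPM or more in the 7 receptor knockout mice and at 21.5 CPM or less in the other 7, while Hist1h2ap and Rps29 follow the split.

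Whether a change was particular to the members was tested against the granulocyte progenitors of the same mice, with the mouse as a block, over 13144 genes. Levels in this test were scaled over both cell types together, so they differ a little from those above. Few genes differed: 4 in Dnmt3a against MxCre (0.0304%), 5 in Tnfr1KO against Dnmt3a (0.038%), 9 in Tnfr2KO against Dnmt3a (0.0685%) and 2 in Tnfr2KO against Tnfr1KO (0.0152%). Macrophage and MHC class II genes that were highest in members of Dnmt3a mouse 4 made up part of them: C1qa in each of the first 3 comparisons, C1qb and C1qc in Tnfr1KO against Dnmt3a, and H2-Aa and H2-Eb1 in Tnfr2KO against Dnmt3a. Dhrs3, a retinaldehyde reductase gene (chromosome 4, 144892534 to 144928209, near Tnfrsf1b), rose in both cell types. In members it was 54.0, 53.3, 37.8 and 68.3 CPM in Tnfr2KO and 19.5, 28.6, 27.5 and 28.7 CPM in Dnmt3a mice. In granulocyte progenitors it was 30.5, 29.2, 18.3 and 43.7 against 6.88, 9.24, 9.46 and 10.8 CPM. The log2 change was smaller in members by 0.69 (difference -0.69, SE 0.08, edgeR adjusted p = 2.52e-04), and it passed in 11 of 11 alternatives.

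S100a10, which codes for an annexin A2 partner, differed in both receptor comparisons. In members it was 307, 242 and 267 CPM in Tnfr1KO and 144, 237, 239 and 218 CPM in Dnmt3a mice. Granulocyte progenitors had 87.7, 97.1 and 86.3 against 86.6, 148, 136 and 109 CPM. The difference of the log2 changes was 0.79 (SE 0.12, edgeR adjusted p = 0.00868), and 0.63 for Tnfr2KO against Dnmt3a (SE 0.11, adjusted p = 0.0167). The first passed in 8 of 10 alternatives, with an adjusted p of up to 0.158, and the second in 6 of 11, with an adjusted p of up to 0.136. Neither change passed by itself in members, and Dnmt3a mouse 1 was low in both cell types. Lgals1, the galectin-1 gene, differed in Dnmt3a against MxCre by -0.48 (SE 0.09, edgeR adjusted p = 0.0494). It passed in 5 of 10 alternatives, and its adjusted p was 0.39 without MxCre mouse 2.

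**Figure D5:**
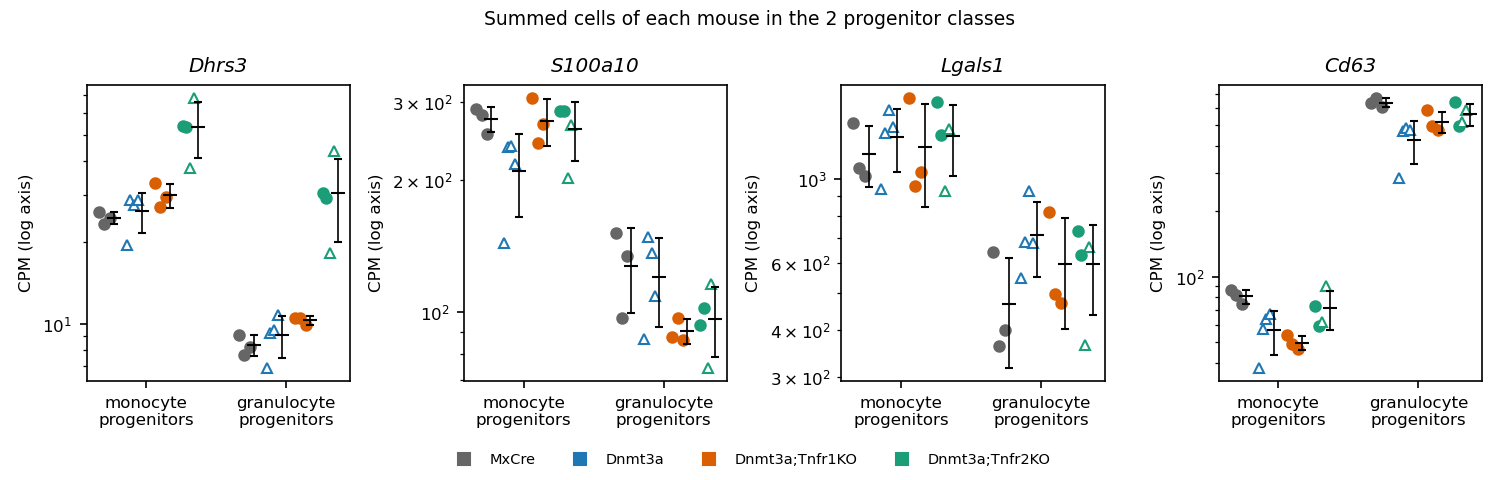
CPM on a log axis of Dhrs3, S100a10, Lgals1 and Cd63 in members and in granulocyte progenitors of the same mice, by genotype, filled circles for the high and open triangles for the low side of the Hist1h2ap split. Dhrs3 is higher in all 4 Tnfr2KO mice in both cell types, at 37.8 to 68.3 CPM in members and 18.3 to 43.7 CPM in granulocyte progenitors.

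Markers of other cell types were uneven in the summed members, given here in CPM without TMM factors. The 10 B lymphoid markers outside the rule summed to 148 to 256 CPM, of which Ighm gave 109 to 199 and Cd79b 28.3 to 46.2 CPM. Pax5, a defining transcription factor of B cells, reached at most 0.98 CPM and was at 0 in 10 mice. The 10 markers of T, NK and innate lymphoid cells summed to 213 to 430 CPM, of which Nkg7, a cytotoxic granule gene, gave 211 to 426 CPM, while Cd3e was at 0 in all 14 mice. The 8 conventional dendritic cell markers summed to 39.8, 42.9, 82.7 and 242 CPM in Dnmt3a mice, above the 36.2 CPM or less of all other mice. Apart from Cd74 and H2-Aa, their sums of 38.1, 32.4, 16.7 and 22.6 CPM overlapped the other groups. The 7 plasmacytoid dendritic cell markers outside the rule summed to 94.1 to 137 CPM in Dnmt3a and 69.6 to 87.9 CPM in MxCre mice, which did not overlap, with 82.6 to 104 CPM in Tnfr1KO and 68.5 to 108 CPM in Tnfr2KO mice. The part of such cells in the Dnmt3a results was not tested. In granulocyte progenitors the median sums were 72.6 CPM for the B lymphoid and 917 CPM for the T, NK and innate lymphoid markers. The 10 erythroid markers, globins among them, summed to 23.7 to 737 CPM, with values above 300 CPM in MxCre mouse 1, Dnmt3a mouse 4, Tnfr1KO mouse 3 and Tnfr2KO mouse 4, so high and low mice occurred in every group. S100a8 also varied between mice, from 4.53 to 158 CPM. Cells that met the rule except for 5 or more S100a4 UMIs, the more mature neighbours, made up 0.69% ± 0.21 of kept cells in MxCre, 0.69% ± 0.68 in Dnmt3a, 0.75% ± 0.25 in Tnfr1KO and 0.37% ± 0.11 in Tnfr2KO mice (SD, n = 3, 4, 3 and 4). The wide Dnmt3a spread came from mouse 4 at 1.71%.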

How the data were processed

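Single-cell 3' gene expression libraries were read as the UMI count matrices the authors deposited, 14 in all and 1 per mouse, with 32285 genes. Per the file headers and the submitters' processing notes, Cell Ranger 6.0.0 and bcl2fastq 2.20.0.422 were used with mm10 (GRCm38). Cells with at least 1000 UMIs, 500 genes and under 10% mitochondrial UMIs were kept. The members and gene lists were chosen with earlier results of these data known.

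Member counts were summed per mouse. Genes passing edgeR's filterByExpr were tested with edgeR 4.0.16 (R 4.3.3) by its quasi-likelihood test with TMM factors, all 4 groups in 1 fit and Benjamini-Hochberg adjustment, with calls at an adjusted p under 0.05. DESeq2 1.42.0 was an alternative. Shares and ratios were compared by exact permutation over mice with scipy 1.17.1. The ratio had 1 cell added to each count. The test script was checked on simulated counts. Doublets were called from simulated pairs of cells with scikit-learn 1.9.0, at an expected 0.8% per 1000 cells, and were kept: 308 members (4.54%) were called. Leaving them out was an alternative.

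Thinning drew 5000 UMIs from each cell and left out shallower ones. For thinned shares, ratios and gene tests the rule was applied again to the thinned counts. Members there were fewer, as in MxCre mouse 3 with 70 instead of 169, and need not be the same cells. Depth and choice of cells therefore change together in these results. Genes were named by rule: Tnfrsf1a, Tnfrsf1b, Dnmt3a and Tnf; per comparison up to 10 genes in each direction with the largest fold change, at least 10 CPM in a group and no overlap; the called list genes or those of highest level; and the 5 interaction genes of lowest adjusted p. Elane, Lyz2, Ifi209, Hist1h2ap, Csf1r, Ccr2, S100a8, C1qa, C1qb, C1qc, Tdrkh, Prss57, Ighm, Nkg7 and Mnd1 were named in some sentences outside it, after their values were seen. Positions are RefSeq's for GRCm38. Summed counts behind each mouse ranged from 4973626 to 28391209 UMIs. Binomial intervals and floors cover counting error only. Some results are not reported here.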

Additional observations from a re-analysis of the deposited data

Results flagged for a closer look

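Among groups of 4 mice, some named genes had 1 mouse far from the rest in CPM of summed members, as judged by Dixon's gap ratio at the 95% level, which chance meets in about 1 in 20 groups. In the Dnmt3a group, mouse 1 was far above the others for Mki67 (508 CPM), Apc (37.7 CPM) and Shprh (27.5 CPM) and far below them for Dhrs3 (20.1 CPM). Dnmt3a mouse 4 was far above for Apoe (117 CPM). The lowest Dnmt3a mouse for 4632427E13Rik stood at 27 CPM. In the Tnfr2KO group, the highest mouse stood apart for Erbin (26.3 CPM) and, in mouse 4, for Mtus2 (3.19 CPM).

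Some genes changed differently in members and in the granulocyte progenitors of the same mice, by edgeR's test of the difference. In Dnmt3a against MxCre the log2 change in members less that in granulocyte progenitors was -0.31 for Fabp5, 0.41 for Xpc and -0.48 for Lgals1. In Tnfr1KO against Dnmt3a it was 0.79 for S100a10 and -0.47 for Cd63. In Tnfr2KO against Dnmt3a it was -0.69 for Dhrs3, 0.26 for S100a11 and 0.63 for S100a10, and in Tnfr2KO against Tnfr1KO it was -0.72 for Dhrs3.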

How the results depend on the processing

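Values are given in the order Dnmt3a less MxCre, Tnfr1KO less Dnmt3a, Tnfr2KO less Dnmt3a, then Tnfr2KO less Tnfr1KO. Counts of changed genes in members moved with several settings. Thinning every cell to 5000 UMIs, with members chosen anew on the thinned counts, gave 34, 72, 100 and 6. DESeq2 gave 676, 500 and 697 in the first 3. Without a filter on low counts the last 3 were 375, 585 and 63. Fitting only the 2 groups compared gave 108 in the first and 24 in the third. A term for the library split, chosen after seeing the data and estimated from the Tnfr2KO mice alone, gave 13, 18 and 49 in the first 3. Leaving out 1 mouse at a time gave 1 to 445, 20 to 284, 61 to 507 and 13 to 33. The cause of these shifts was not tested.

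Genes that changed differently from granulocyte progenitors numbered 110, 120, 148 and 92 without a filter, 2 with RLE factors in the first comparison, and 2 and 4 without called doublets in the second and the third. Leaving out 1 mouse gave 0 to 22, 1 to 9, 3 to 10 and 1 to 7.

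The share difference ran from 2.35 to 5.85, 2.30 to 6.82, -0.72 to 2.78 and -5.53 to -1.61 percentage points with 1 mouse left out. The third turned to -0.25 without Tnfr2KO mouse 1, -0.72 without Dnmt3a mouse 4 and -0.72 within the split, where the last was -0.99. With 1 mouse left out the log2 ratio difference ran from 0.08 to 0.59, 0.24 to 0.75, -0.30 to 0.22 and -0.75 to -0.35. Within the split the last 2 were -0.50 and -0.06. The third was 0.0071 without called doublets, 0.093 and 0.155 without Tnfr2KO mice 3 and 4, and 0.217 and 0.016 without Dnmt3a mice 1 and 2. Ctsh in Tnfr2KO against Dnmt3a was -0.0057 after thinning.

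The replicate numbers are shared between groups, and deviations of same-numbered mice correlated at -0.39 to 0.42. Mice of different numbers were not set beside them, so this does not settle whether the numbers pair the mice. With the number as a block, changed genes were 366, 132, 256 and 23, share differences 5.85, 2.30, 1.30 and -2.14 points, and ratio differences 0.59, 0.24, -0.03 and -0.35. Of the values for single named genes under all alternatives, 2827 kept their direction and side of the threshold, 423 no longer passed, 12 newly passed and 1 turned. With 166 to 1170 members a mouse, depth limits the precision for genes of few UMIs.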
